A study of Arabidopsis thaliana with 24 samples.

Results

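The genes described here are the 38 nuclear genes of Arabidopsis thaliana listed for the synthesis and breakdown of chlorophyll and other tetrapyrroles. They were chosen by gene identifier from what their products do, and the rule uses no measured value. Earlier results of these data were known when they were chosen. Of the 38, 32 are among the 11166 genes of the high light (HL) table and 30 among the 10930 genes of the low light (LL) table, and these 30 are in both. The chlorophyll breakdown genes SGR1 and RCCR were analysed in HL only, and HEMA2, CHLI2, DVR, HY2, CAO and CLH2 are not analysed here. Transcripts were measured in whole 2-week-old seedlings of Ch1, a mutant of ecotype Col-0 that lacks chlorophyllide a oxygenase (CAO) and with it chlorophyll b. All libraries carry this mutation, and no wild type was among them. Seedlings were raised with 16 h of light and 8 h of dark, kept in water and then placed at HL (1000 µE) or at LL (30 µE) for 0, 1, 2 or 4 h, with 3 libraries for each of the 8 groups. The light of the growth room lay between these levels, so both series were a change of light, and in each of them the light, the transfer and the time of day moved together and cannot be told apart.

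Chlorophyll and haem are made in the chloroplast on a shared path. Glutamyl-tRNA reductase (HEMA) and glutamate-1-semialdehyde aminomutase (GSA) make 5-aminolevulinic acid (ALA), and HEMB, HEMC, HEME, HEMF and PPOX turn it into protoporphyrin IX. Magnesium chelatase (CHLI, CHLD and CHLH, with the activator GUN4) then opens the branch to chlorophyll, which runs through CHLM, the cyclase CRD1, protochlorophyllide oxidoreductase (POR), chlorophyll synthase (CHLG) and CAO. Ferrochelatase (FC) opens the branch to haem. Free intermediates such as protochlorophyllide make singlet oxygen when lit, and FLU is the protein that holds back ALA synthesis when protochlorophyllide builds up. Breakdown starts with chlorophyll b reductase (NYC1) and the magnesium dechelatases of the SGR family, and goes on through pheophytinase (PPH), pheophorbide a oxygenase (PAO) and RCCR.

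Library totals ran from 1163870 to 2070855 counts, with a median of 1709847.5. Levels are given as CPM, counts scaled to a common library total, with 1 TMM scale for all 24 libraries. Within a series, edgeR's quasi-likelihood test set 1, 2 and 4 h each against 0 h. A gene passed at a Benjamini-Hochberg adjusted p under 0.05 over all genes of the table, and was called when it also changed at least 2-fold. Changes are log2 fold changes, later time over 0 h, given ± SE with 3 libraries against 3. The study's methods for RNA extraction and qRT-PCR describe biological replicates, each a pool of whole seedlings. The labels of these libraries name no separate cultures, so the p-values reflect how far the libraries vary, which may be technical in part. Libraries are numbered by their replicate label. Shoot and root RNA were both present, as none of 5 shoot and 5 root marker genes was at 0 in any group. The shoot markers summed to 16000 to 21200 CPM at 4 h of HL against 8020 to 16000 at 0 h, and to 9340 to 12000 CPM at 4 h of LL against 21600 to 22900 at 0 h. The root markers summed to 67.3 to 80.9 CPM at 4 h of HL against 130 to 193 at 0 h, and to 69.8 to 93.6 CPM at 4 h of LL against 103 to 160 at 0 h. The shoot markers of LL were already at 11400 to 12300 CPM at 1 h. Fewer cells of a type and less RNA of the marker genes in each cell cannot be told apart in whole seedlings, so these sums do not measure the share of a tissue. The 0 h libraries of the series also differed from each other, with 0.348% of 10349 genes called higher and 4.14% called lower in HL than in LL.

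Several genes of the magnesium branch, among them CHLH, CRD1 and PORB, and the ferrochelatase FC1 fell in both series, and the breakdown genes NYC1, CLH1 and PAO and the ferrochelatase FC2 rose. At 1 h of HL, 1 of 32 genes was called higher and 5 lower, where 3.96% and 5.05% of all genes were. At 2 h of HL, 3 were called higher and 5 lower (4.71% and 7.2% of all genes), and at 4 h 3 higher and 4 lower (7.51% and 8.17%). In LL, 1 of 30 was called higher and 3 lower at 1 h (3.42% and 7.01% of all genes), 2 higher and 7 lower at 2 h (4.34% and 8.15%) and 4 higher and 9 lower at 4 h (5.74% and 10.8%). Read as shares, the genes called lower were 12.5% of 32 at 4 h of HL and 30% of 30 at 4 h of LL. The share called higher was 9.38% at 4 h of HL and 13.3% at 4 h of LL. Without the 2-fold limit, 4 genes passed higher and 11 lower at 1 h of HL (8.26% and 9.37% of all genes), 5 and 9 at 2 h (9.82% and 12%) and 5 and 9 at 4 h (13.3% and 13.7%). The LL counts that passed were 6 higher and 9 lower for 1 h (9.24% and 10.6% of all genes), 6 and 13 for 2 h (11.3% and 12.2%) and 6 and 13 for 4 h (13.1% and 15.8%).

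The medians of the branches had different signs. The median log2 fold change of the 11 magnesium branch genes was -0.73 at 1 h, -0.76 at 2 h and -0.27 at 4 h of HL, and -0.95 at 1 h, -1.08 at 2 h and -0.65 at 4 h of LL. Over all genes the median stayed between -0.0361 and 0.038 in these comparisons. All 11 had negative values at 1 h of both series. The median of the 7 breakdown genes of HL was 0.53 at 1 h, 0.96 at 2 h and 0.86 at 4 h, and that of the 5 of LL was 0.80 at 1 h, 0.99 at 2 h and 1.12 at 4 h. All 5 breakdown genes analysed in LL passed higher at 4 h. The 10 early genes had medians of -0.42 at 4 h of HL and -0.82 at 4 h of LL.

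**Figure D1:**
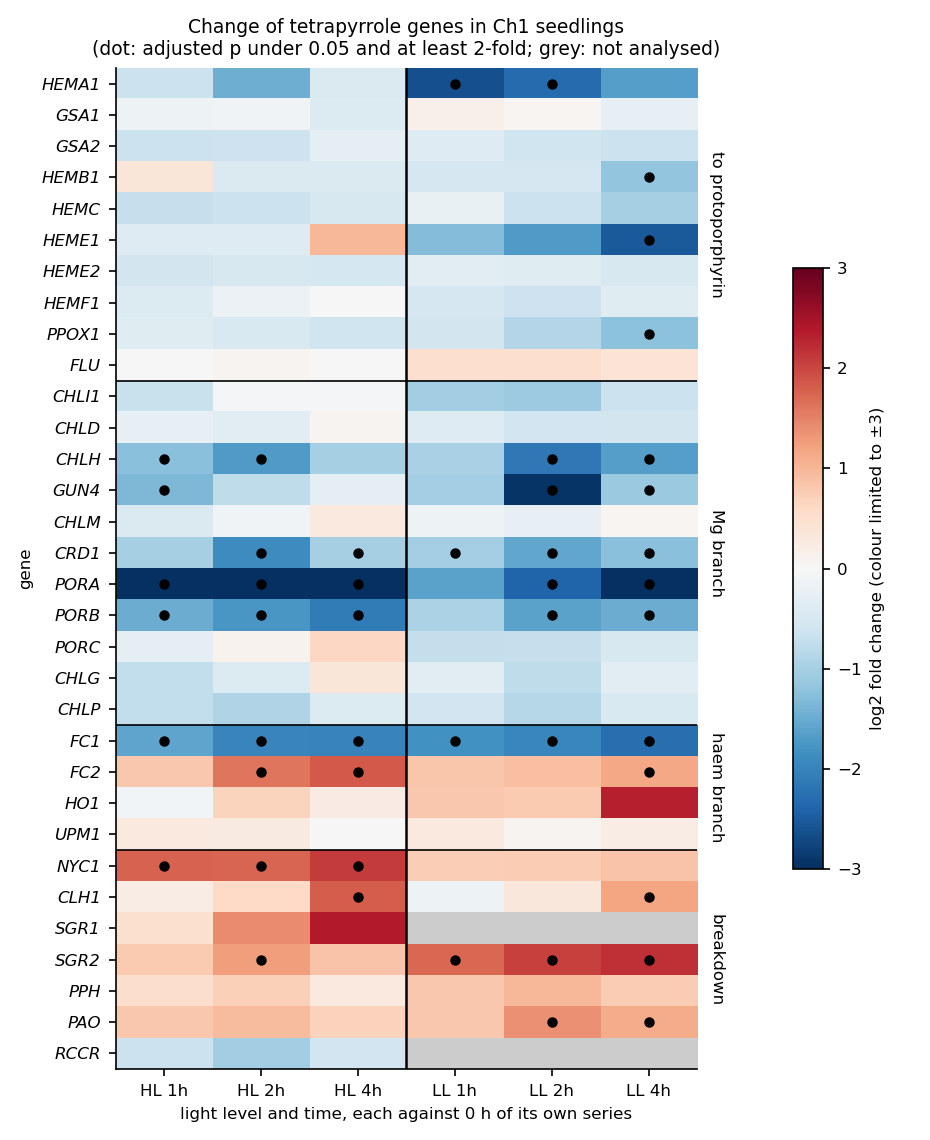
Log2 fold change of 32 genes (rows, grouped by branch) at 1, 2 and 4 h of HL (left) and LL (right), each against 0 h of its own series, with a dot where the gene was called and grey where it was not analysed. CRD1, PORA, PORB and FC1 carry dots at 4 h of both series on the lower side, and FC2 and CLH1 on the higher side.

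Of the 14 genes called at 4 h in either series, 6 hold at least 1 of 3 short motifs in the 250 bases before the annotated gene start. How many of all windows hold at least 1 of the 3 was not counted, so no such share stands beside the 6. The stretches of the 6 are shown because the motifs are ones that light and clock regulators are known to bind. CRD1, PORA and PORB were called lower, and FC2, NYC1 and SGR2 higher. They are the G-box (CACGTG, the same on both strands), the I-box (GATAAG, read as CTTATC on the other strand) and the evening element (AAAATATCT), each searched on both strands, and no match overlapped another. The G-box is in 6.49% of the 27443 windows of this length in the genome and in 5 of the 38 here (13.2%). Among these 5 are CAO and HY2, which are not analysed here. The I-box is in 12.3% of all windows and in 3 of 38 (7.89%), and the evening element in 2.36% of all windows and in 3 of 38 (7.89%), which are PORA, PORB and NYC1. The first base of the evening element lies 180 bases before the start of PORA, 142 before PORB and 12 before NYC1. The G-box begins 52 bases before CRD1, 14 before FC2 and 112 before SGR2, and the I-box 94 before PORA and 174 before SGR2, both times on the other strand. A match is a description of these letters and not of a bound site. Sequences are from RefSeq, build TAIR10.1, written 5′ to 3′ on the strand of the gene and ending at its start, with the motifs in capitals. CRD1, PORB and FC2 are cut where another annotated exon begins. The stretches are chr3:21076316-21076504 for CRD1 (plus strand), chr5:21992815-21993064 for PORA (minus strand), chr4:13725360-13725545 for PORB (plus strand), chr2:12954149-12954173 for FC2 (minus strand), chr4:7687007-7687256 for NYC1 (minus strand) and chr4:7155900-7156149 for SGR2 (plus strand).
CRD1: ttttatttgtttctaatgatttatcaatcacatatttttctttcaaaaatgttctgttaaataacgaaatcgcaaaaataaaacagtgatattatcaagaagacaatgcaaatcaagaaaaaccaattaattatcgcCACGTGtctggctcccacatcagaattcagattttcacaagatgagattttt
PORA: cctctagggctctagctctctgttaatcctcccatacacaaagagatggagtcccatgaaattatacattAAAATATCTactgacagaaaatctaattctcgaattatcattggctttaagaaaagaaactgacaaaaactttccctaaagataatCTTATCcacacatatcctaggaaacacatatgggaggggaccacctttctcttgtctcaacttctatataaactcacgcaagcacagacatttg
PORB: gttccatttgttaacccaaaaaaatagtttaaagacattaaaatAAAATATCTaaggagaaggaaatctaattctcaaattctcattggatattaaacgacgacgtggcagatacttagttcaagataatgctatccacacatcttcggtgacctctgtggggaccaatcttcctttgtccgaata
FC2: aactgtgtggaCACGTGtggttctc
NYC1: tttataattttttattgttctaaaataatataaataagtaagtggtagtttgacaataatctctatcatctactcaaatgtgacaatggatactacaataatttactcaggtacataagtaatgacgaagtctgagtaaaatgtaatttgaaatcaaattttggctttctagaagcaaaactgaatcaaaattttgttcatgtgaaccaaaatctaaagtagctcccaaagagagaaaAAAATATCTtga
SGR2: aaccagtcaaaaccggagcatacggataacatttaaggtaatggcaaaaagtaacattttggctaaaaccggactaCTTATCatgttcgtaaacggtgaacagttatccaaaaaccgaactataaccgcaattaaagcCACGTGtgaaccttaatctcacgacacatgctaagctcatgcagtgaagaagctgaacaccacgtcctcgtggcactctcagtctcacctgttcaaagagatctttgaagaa

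CHLH (AT5G13630, chr5:4387307-4392429), the large subunit of magnesium chelatase that binds protoporphyrin IX, fell in both series and was lowest at 2 h. It had 674.5, 603.5 and 599 CPM at 0 h of HL, 280.1, 268.5 and 241 after 1 h, 182, 179 and 227 after 2 h and 379, 293 and 292 after 4 h. In LL it had 601.5, 571 and 599 CPM at 0 h, 304, 286 and 311 after 1 h, 118, 149.8 and 127 after 2 h and 201, 169.6 and 198 after 4 h. Every later library lay below every 0 h library of its series, and the 4 h libraries of HL lay above those of LL. The change in HL was -1.26 ± 0.14 (adjusted p = 2.26e-06) at 1 h, -1.705 ± 0.14 (adjusted p = 3.36e-08) at 2 h and -0.999 ± 0.14 (adjusted p = 1.44e-05) at 4 h, where it fell just short of 2-fold and so passed without a call. In LL it was -0.98 ± 0.12 (adjusted p = 1.74e-05) at 1 h, -2.15 ± 0.13 (adjusted p = 1.45e-09) at 2 h and -1.65 ± 0.13 (adjusted p = 1.78e-08) at 4 h. CHLD, a subunit of its ATPase part, passed lower at 4 h of LL with -0.55 ± 0.16 (adjusted p = 0.0181) and had 0.08 (adjusted p = 0.818) in HL. CHLI1, of the same part, had 1 to 13 counts in each library, with -0.03 (adjusted p = 0.975) at 4 h of HL. In LL it had -1.045 (adjusted p = 0.228) at 1 h, -1.08 (adjusted p = 0.196) at 2 h and -0.65 (adjusted p = 0.387) at 4 h, and it passed at no time.

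GUN4 (AT3G59400, chr3:21948501-21949796) binds porphyrins and activates magnesium chelatase. It had 39, 25 and 35 counts at 0 h of HL, 8, 15 and 22 after 1 h, 21, 29 and 17 after 2 h and 28, 31 and 31 after 4 h, and 13, 42 and 18 counts at 0 h of LL, 25, 5 and 5 after 1 h, 3, 2 and 4 after 2 h and 10, 13 and 17 after 4 h. In CPM that was a mean of 20.2 ± 1.89 CPM at 0 h of HL, 7.85 ± 3.05 CPM at 1 h, 12.4 ± 4.39 CPM at 2 h and 17.2 ± 1.32 CPM at 4 h (SD, n = 3). In LL the means were 15.35 ± 7.92 CPM at 0 h, 6.87 ± 4.66 CPM at 1 h, 1.89 ± 0.36 CPM at 2 h and 7.11 ± 1.835 CPM at 4 h (SD, n = 3). In HL every later library lay below those of 0 h, least so at 4 h, whereas in LL it was lowest at 2 h, with 2 to 4 counts in each library. In HL it fell at 1 h, with -1.34 ± 0.29 (adjusted p = 0.00274), and had -0.76 (adjusted p = 0.057) at 2 h and -0.27 (adjusted p = 0.513) at 4 h. In LL the value was -1.03 (adjusted p = 0.0952) at 1 h, and it fell with -2.945 ± 0.54 (adjusted p = 0.000483) at 2 h and -1.12 ± 0.41 (adjusted p = 0.0474) at 4 h. The last call is the least firm, as the LL libraries of 4 h and 0 h overlap and the adjusted p went above 0.05 without any 1 of 8 libraries, LL 0 h library 2 or 3, LL 1 h library 2, LL 2 h library 1 or 3, or each of the LL 4 h libraries in turn. The change was then between -0.61 and -1.33, with the smallest without LL 0 h library 2.

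CRD1 (AT3G56940, chr3:21076505-21078443), the magnesium protoporphyrin IX monomethyl ester cyclase, fell in both series. It had 46.9, 61.4 and 41.5 CPM at 0 h of HL, 20.5, 34.6 and 20.1 after 1 h, 9.54, 16.6 and 14.9 after 2 h and 23.6, 33.75 and 19.1 after 4 h. Its LL libraries had 35.0, 36.1 and 48.6 CPM at 0 h, 21.55, 19.6 and 16.5 after 1 h, 15.0, 15.6 and 9.705 after 2 h and 18.7, 13.45 and 17.7 after 4 h. Every later library lay below every 0 h library of its series. The change was -0.99 ± 0.25 (adjusted p = 0.00846) at 1 h, -1.89 ± 0.27 (adjusted p = 2.87e-05) at 2 h and -1.001 ± 0.25 (adjusted p = 0.00523) at 4 h of HL. In LL it was -1.03 ± 0.23 (adjusted p = 0.00358) at 1 h, -1.565 ± 0.24 (adjusted p = 8.44e-05) at 2 h and -1.26 ± 0.22 (adjusted p = 0.000308) at 4 h. At 4 h of HL the value sits at the 2-fold limit, and the call ended without HL 0 h library 2 (-0.80), HL 1 h library 1 (-0.98), HL 4 h library 1 (-0.95) or HL 4 h library 3 (-0.84). At 1 h of LL it ended without LL 0 h library 3 (-0.87) or LL 1 h library 3 (-0.93). CHLM, the methyltransferase that acts between the chelatase and the cyclase, had 0.30 (adjusted p = 0.0618) at 4 h of HL and 0.07 (adjusted p = 0.777) at 4 h of LL, and passed lower at 1 h of HL with -0.42 ± 0.11 (adjusted p = 0.0132).

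**Figure D2:**
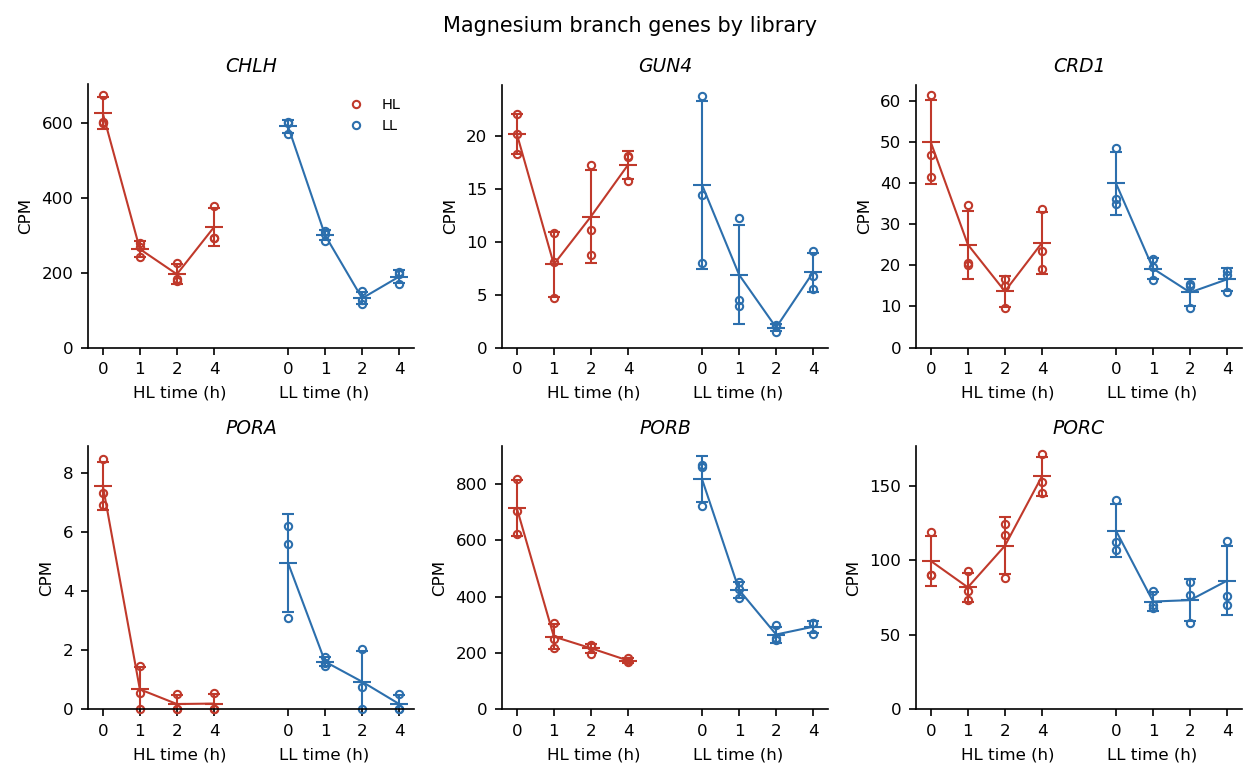
Level of 6 magnesium branch genes in CPM (vertical axes start at 0) at 0, 1, 2 and 4 h of HL (red, left) and LL (blue, right); circles are libraries, and bars are the mean and SD of 3. PORB went to 172.7 ± 7.59 CPM at 4 h of HL and PORC to 156.4 ± 13.3 CPM.

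The POR genes went apart. POR reduces protochlorophyllide to chlorophyllide in a step that needs light, and Arabidopsis has PORA, known from dark-grown seedlings, and PORB and PORC, known from green tissue. PORB (AT4G27440, chr4:13725546-13727440) had 817.5, 622 and 705 CPM at 0 h of HL, 248, 306 and 219 after 1 h, 198, 224 and 228 after 2 h and 171, 181 and 166 after 4 h. At low light the gene had 724, 862 and 866 CPM at 0 h, 427, 393 and 450.4 after 1 h, 245, 253 and 298 after 2 h and 305, 268 and 305 after 4 h. Every later library lay below every 0 h library of its series, with changes of -1.48 ± 0.14 (adjusted p = 3.89e-07) at 1 h, -1.755 ± 0.14 (adjusted p = 2.58e-08) at 2 h and -2.09 ± 0.14 (adjusted p = 1.7e-09) at 4 h of HL. In LL the change was -0.95 ± 0.13 (adjusted p = 3.19e-05) at 1 h, -1.61 ± 0.13 (adjusted p = 6.04e-08) at 2 h and -1.49 ± 0.13 (adjusted p = 8.17e-08) at 4 h. PORA (AT5G54190, chr5:21990864-21992814), whose upstream stretch is printed above beside that of PORB, had few reads, 15, 10 and 12 counts at 0 h of HL, 0, 1 and 3 after 1 h, 0, 0 and 1 after 2 h and 1, 0 and 0 after 4 h, and 5, 11 and 7 counts at 0 h of LL, 3, 2 and 2 after 1 h, 3, 1 and 0 after 2 h and 0, 1 and 0 after 4 h. At 4 h a single count remained in the 3 libraries of HL against 37 at 0 h, a ratio of 0.0252 (exact 95% interval 0.000621 to 0.149). In LL it was 1 count against 23, a ratio of 0.036 (0.000875 to 0.222), and these intervals cover counting error only. PORA was called lower at each time of HL and at 2 and 4 h of LL, with adjusted p of 0.000172 at 4 h of HL and 0.00161 at 4 h of LL. The call at 2 h of LL (-2.40) ended without LL 0 h library 2 (-2.17) or 3 (-2.32) or LL 2 h library 2 (-2.32) or 3 (-1.73).

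PORC (AT1G03630, chr1:907523-909650) had 119, 89.9 and 90.0 CPM at 0 h of HL, 92.6, 79.4 and 73.4 after 1 h, 87.95, 124 and 117 after 2 h and 145, 171 and 153 after 4 h. In LL it had 107, 112 and 140.3 CPM at 0 h, 79.3, 67.6 and 69.8 after 1 h, 57.8, 85.3 and 76.6 after 2 h and 69.85, 76.0 and 113 after 4 h. All 4 h libraries of HL lay above those of 0 h of HL and above those of 4 h of LL, and the 4 h and 0 h libraries of LL overlap. PORC rose at 4 h of HL by 0.61 ± 0.16 (adjusted p = 0.00747), short of 2-fold, after -0.29 (adjusted p = 0.255) at 1 h and 0.10 (adjusted p = 0.714) at 2 h. In LL it fell at 1 h, with -0.71 ± 0.19 (adjusted p = 0.0112), and at 2 h, with -0.69 ± 0.19 (adjusted p = 0.0105), and had -0.48 (adjusted p = 0.057) at 4 h. As a share of all POR counts of a library, PORC was 12.1 ± 0.757% at 0 h, 24.2 ± 3.34% at 1 h, 33.4 ± 2.46% at 2 h and 47.4 ± 1.43% at 4 h of HL (SD, n = 3). In LL it was 12.7 ± 1.2% at 0 h, 14.5 ± 1.12% at 1 h, 21.5 ± 3.23% at 2 h and 22.6 ± 4.22% at 4 h. The 4 h libraries of HL, at 45.8 to 48.6%, did not overlap those of LL, at 18.6 to 27.0%. These are shares of 3′ end counts, and the sources used here do not say whether molecular identifiers were collapsed. The shares thus describe how the mix of counts shifted and not the ratio of transcripts.

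**Figure D3:**
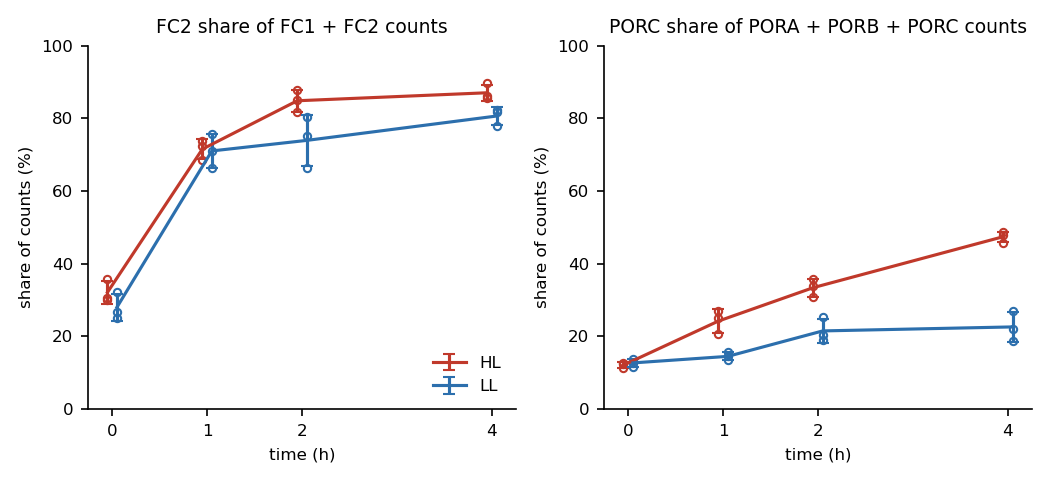
Share of counts (%, axes 0 to 100) of FC2 among FC1 and FC2 (left panel) and of PORC among the POR genes (right panel) against time in h, with HL in red and LL in blue; circles are libraries and bars are SD of 3. FC2 stood at 87.0% at 4 h of HL and 80.6% at 4 h of LL, and PORC at 47.4% and 22.6%.

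At the last steps to chlorophyll, CHLP and CHLG stayed short of 2-fold against 0 h. From 1 to 4 h of HL, CHLG rose by 1.10 ± 0.24 (adjusted p = 0.00367), as given below. CHLP makes the phytyl tail and was the most abundant of the genes by counts, with means of 1006 ± 44.6 CPM at 4 h against 1297 ± 100.5 CPM at 0 h of HL and of 905 ± 55.0 CPM against 1245 ± 156 CPM in LL (SD, n = 3). It passed lower at every later time of both series, with changes from -0.90 at 2 h of HL to -0.40 at 4 h of HL, short of 2-fold throughout. CHLG, which joins chlorophyllide to that tail, had means of 36.8 ± 9.69 CPM at 0 h, 22.2 ± 2.12 CPM at 1 h, 27.9 ± 10.5 CPM at 2 h and 48.7 ± 7.83 CPM at 4 h of HL. It passed at 2 h of LL (-0.75, adjusted p = 0.0431), although those libraries overlap with 0 h.

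Among the early genes the falls were called in LL only, which by itself does not show a difference between the series. HEMA1 (AT1G58290, chr1:21623700-21626402), the main glutamyl-tRNA reductase of green tissue, had few reads, 9, 6 and 7 counts at 0 h of HL, 5, 4 and 7 after 1 h, 7, 1 and 1 after 2 h and 10, 0 and 8 after 4 h, and 8, 12 and 2 counts at 0 h of LL, 1, 1 and 1 after 1 h, 1, 1 and 2 after 2 h and 3, 5 and 0 after 4 h. It was high in the 0 h libraries of both series except LL library 3 and spread widely at 4 h. It was called lower at 1 h of LL (-2.63, adjusted p = 0.0322, 3 counts against 22, a ratio of 0.143 with an exact 95% interval of 0.0274 to 0.476 that covers counting error only) and at 2 h (-2.32, adjusted p = 0.0392). Both calls ended without LL 0 h library 1 or 2 and without any 1 library of the later time, with values from -2.19 to -2.78 at 1 h and from -1.88 to -2.56 at 2 h. At 4 h HEMA1 had -0.42 (adjusted p = 0.702) in HL and -1.65 (adjusted p = 0.0798) in LL. FLU (AT3G14110, chr3:4676118-4677689), the negative regulator of ALA synthesis, had 259, 281 and 209.9 CPM at 0 h of HL, 269.5, 260.4 and 223 after 1 h, 217, 303 and 289 after 2 h and 221, 272 and 269.6 after 4 h. Its LL libraries had 183.5, 155 and 210.4 CPM at 0 h, 236.5, 258 and 282.5 after 1 h, 222, 331.5 and 217 after 2 h and 212, 229 and 294 after 4 h. In HL its libraries overlap at all times, with -0.002 (adjusted p = 0.996) at 1 h, 0.08 (adjusted p = 0.784) at 2 h and -0.01 (adjusted p = 0.964) at 4 h. In LL it rose by 0.50 ± 0.17 (adjusted p = 0.0484) at 1 h and 0.51 ± 0.17 (adjusted p = 0.0417) at 2 h, and had 0.42 (adjusted p = 0.0785) at 4 h. The 0 h mean was 182.9 ± 27.85 CPM in LL and 250.1 ± 36.52 CPM in HL (SD, n = 3). This gap at 0 h did not pass, with 0.45 for HL over LL (adjusted p = 0.124).

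HEMB1 (AT1G69740, chr1:26231620-26235043), ALA dehydratase, had 28.3, 32.9 and 25.95 CPM at 0 h of HL, 43.9, 45.9 and 23.5 after 1 h, 20.1, 19.6 and 25.1 after 2 h and 23.6, 15.7 and 26.6 after 4 h. At low light it had 55.85, 78.5 and 64.6 CPM at 0 h of LL, 47.0, 47.2 and 45.5 after 1 h, 55.1, 22.25 and 60.4 after 2 h and 39.6, 27.9 and 20.9 after 4 h. The 4 h libraries of LL lay below those of 0 h, with -1.18 ± 0.28 (adjusted p = 0.00333), and the call ended without LL 4 h library 3 (-0.98). In HL the value at 4 h was -0.43 (adjusted p = 0.253), from a 0 h level already below that of LL. PPOX1 (AT4G01690, chr4:729863-732433), protoporphyrinogen oxidase, had 66.15, 45.3 and 60.55 CPM at 0 h of HL, 42.8, 53.5 and 38.7 after 1 h, 48.7, 35.1 and 43.6 after 2 h and 33.7, 43.6 and 39.3 after 4 h. At low light it had 76.7, 75.7 and 96.4 CPM at 0 h of LL, 60.2, 48.05 and 58.85 after 1 h, 42.8, 41.5 and 48.5 after 2 h and 36.3, 36.2 and 33.75 after 4 h. Its LL libraries were lower at every later time, with -0.56 ± 0.15 (adjusted p = 0.0152) at 1 h, -0.88 ± 0.16 (adjusted p = 0.000386) at 2 h and -1.225 ± 0.16 (adjusted p = 9.14e-06) at 4 h, and it passed at 4 h of HL with -0.61 ± 0.19 (adjusted p = 0.0214).

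HEME1 (AT3G14930, chr3:5020461-5023146), a uroporphyrinogen III decarboxylase, was near the floor of the count scale with 4, 2 and 2 counts at 0 h of HL, 2, 2 and 3 after 1 h, 2, 4 and 1 after 2 h and 5, 9 and 4 after 4 h, and 4, 12 and 5 counts at 0 h of LL, 5, 1 and 2 after 1 h, 2, 3 and 1 after 2 h and 1, 1 and 2 after 4 h. It was called lower at 4 h of LL with -2.53 ± 0.68 (adjusted p = 0.00913), a call that ended without LL 0 h library 2 (-2.03), the library with 12 counts. In HL it had 1.002 (adjusted p = 0.259) at 4 h. Its abundant paralog HEME2 had means of 166 ± 23.5 CPM at 4 h against 232 ± 23.8 CPM at 0 h of HL and of 143 ± 34.55 CPM against 199 ± 45.9 CPM in LL (SD, n = 3), and passed lower in HL with -0.52 ± 0.14 (adjusted p = 0.00756). Of the aminomutases, GSA1 passed lower at 4 h of HL (-0.42, adjusted p = 0.0216) and GSA2 at 4 h of LL (-0.65, adjusted p = 0.00111). GSA2 also passed lower in HL at 1 h (-0.65, adjusted p = 0.00543) and at 2 h (-0.62, adjusted p = 0.00593). HEMC, porphobilinogen deaminase, passed lower at 4 h of LL (-0.99, adjusted p = 0.00463), and in HL at 1 h (-0.70, adjusted p = 0.0373) and at 2 h (-0.65, adjusted p = 0.0451). HEMF1, coproporphyrinogen III oxidase, had 6 to 20 counts in each library and 0.01 (adjusted p = 0.986) at 4 h of HL and -0.36 (adjusted p = 0.468) at 4 h of LL.

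The ferrochelatases changed places by counts in both series. FC1 and FC2 put iron into protoporphyrin IX, and in Arabidopsis FC1 is known from all organs and FC2 from green tissue. FC1 (AT5G26030, chr5:9096451-9099185) had 72.9, 102 and 76.7 CPM at 0 h of HL, 24.6, 25.4 and 33.3 after 1 h, 24.9, 19.6 and 20.5 after 2 h and 19.6, 23.9 and 20.25 after 4 h. At low light the gene had 73.65, 84.1 and 78.9 CPM at 0 h, 25.0, 21.4 and 20.4 after 1 h, 17.7, 17.1 and 24.3 after 2 h and 18.15, 15.5 and 16.1 after 4 h. No later library came near those of 0 h, and the fall was in place at 1 h, with -1.585 ± 0.18 (adjusted p = 3.46e-06) in HL and -1.805 ± 0.18 (adjusted p = 1.15e-06) in LL. At 4 h it was -2.01 ± 0.19 (adjusted p = 1.14e-07) in HL and -2.25 ± 0.18 (adjusted p = 3e-08) in LL. FC2 (AT2G30390, chr2:12950954-12954148), which holds a G-box just before its start, had 40.7, 44.6 and 32.9 CPM at 0 h of HL, 64.45, 71.3 and 72.4 after 1 h, 112, 141 and 116 after 2 h and 168, 140.2 and 125.5 after 4 h. In LL it had 27.0, 28.2 and 37.5 CPM at 0 h, 49.0, 52.5 and 63.55 after 1 h, 53.0, 69.0 and 48.0 after 2 h and 63.8, 71.9 and 71.3 after 4 h. Every later library lay above every 0 h library of its series. FC2 rose by 0.82 ± 0.17 (adjusted p = 0.00186) at 1 h, 1.61 ± 0.17 (adjusted p = 5.58e-07) at 2 h and 1.84 ± 0.17 (adjusted p = 5.96e-08) at 4 h of HL. In LL the rise was 0.84 ± 0.19 (adjusted p = 0.00373) at 1 h, 0.89 ± 0.19 (adjusted p = 0.00156) at 2 h and 1.17 ± 0.18 (adjusted p = 7.44e-05) at 4 h.

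As a share of both ferrochelatases, FC2 made up 32.1 ± 3.23% of counts at 0 h, 71.5 ± 2.71% at 1 h, 84.8 ± 3.00% at 2 h and 87.0 ± 2.20% at 4 h of HL (SD, n = 3). In LL it made up 28.0 ± 3.69% at 0 h, 71.0 ± 4.74% at 1 h, 73.9 ± 6.95% at 2 h and 80.6 ± 2.37% at 4 h. The larger part of the shift was thus in place at 1 h of both light levels. Like those of PORC, these are shares of counts and not of transcripts. HO1 and UPM1 were grouped with the haem branch for the counts and are given here. HO1, the haem oxygenase that opens the way to the phytochrome chromophore, had 5, 3 and 5 counts at 0 h of HL, 5, 5 and 4 after 1 h, 9, 7 and 8 after 2 h and 6, 4 and 7 after 4 h. In LL it had 1, 2 and 1 counts at 0 h, 4, 2 and 1 after 1 h, 7, 0 and 0 after 2 h and 7, 7 and 12 after 4 h. Its change at 4 h was 0.24 (adjusted p = 0.785) in HL and 2.325 (adjusted p = 0.0512) in LL, and neither passed. UPM1, which leads to sirohaem, had means of 53.9 ± 3.925 CPM at 4 h against 52.2 ± 1.90 CPM at 0 h of HL and of 74.0 ± 11.7 CPM against 62.7 ± 2.10 CPM in LL (SD, n = 3), and passed at no time against 0 h.

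Of the breakdown genes, NYC1 (AT4G13250, chr4:7684156-7687006) encodes the reductase that turns chlorophyll b, the pigment these seedlings lack, towards chlorophyll a. It had 43.0, 29.2 and 60.0 CPM at 0 h of HL, 177, 145 and 132 after 1 h, 175, 141 and 143.5 after 2 h and 208, 157 and 218 after 4 h. Its LL libraries had 112, 84.1 and 70.9 CPM at 0 h, 125, 148 and 176.5 after 1 h, 174, 95.7 and 180.1 after 2 h and 189.7, 155 and 145 after 4 h. All later libraries of HL lay far above those of 0 h, and the HL and LL levels overlapped at 1, 2 and 4 h, while at 0 h every HL library lay below every LL library. NYC1 rose in HL by 1.76 ± 0.21 (adjusted p = 5.71e-06) at 1 h, 1.75 ± 0.21 (adjusted p = 3.7e-06) at 2 h and 2.09 ± 0.21 (adjusted p = 2.65e-07) at 4 h. In LL it rose by 0.74 ± 0.22 (adjusted p = 0.0249) at 1 h, 0.77 ± 0.22 (adjusted p = 0.0162) at 2 h and 0.86 ± 0.22 (adjusted p = 0.00596) at 4 h, short of 2-fold, and 1 of the 2 h libraries overlapped with 0 h.

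CLH1 (AT1G19670, chr1:6803486-6805092), a chlorophyllase, had 49.2, 56.3 and 47.3 CPM at 0 h of HL, 53.9, 51.3 and 73.9 after 1 h, 78.9, 99.3 and 58.95 after 2 h and 149.8, 275 and 131 after 4 h. At low light the gene had 43.6, 56.5 and 41.4 CPM at 0 h, 45.5, 48.05 and 34.5 after 1 h, 51.0, 67.5 and 58.8 after 2 h and 98.45, 108 and 121 after 4 h. Its rise came late. The values at 1 h were 0.23 (adjusted p = 0.599) in HL and -0.15 (adjusted p = 0.625) in LL, and at 4 h every library lay above every 0 h library, by 1.82 ± 0.25 (adjusted p = 1.09e-05) in HL and 1.19 ± 0.16 (adjusted p = 2.21e-05) in LL. HL library 2 at 4 h, with 275 CPM, was the highest of them.

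SGR2 (AT4G11910, chr4:7156150-7158047), of the magnesium dechelatase family, had 14, 17 and 11 counts at 0 h of HL, 13, 34 and 38 after 1 h, 42, 42 and 33 after 2 h and 27, 33 and 25 after 4 h, and 11, 8 and 8 counts at 0 h of LL, 21, 23 and 38 after 1 h, 37, 27 and 50 after 2 h and 62, 35 and 54 after 4 h. In LL every later library lay above every 0 h library, by 1.72 ± 0.40 (adjusted p = 0.00501) at 1 h, 2.06 ± 0.38 (adjusted p = 0.000618) at 2 h and 2.19 ± 0.37 (adjusted p = 0.000201) at 4 h. In HL it was called at 2 h with 1.25 ± 0.32 (adjusted p = 0.00772), which ended without HL 0 h library 3 (1.05), and had 0.86 (adjusted p = 0.0675) at 4 h. Its paralog SGR1 had 0, 2 and 1 counts at 0 h of HL, 2, 0 and 3 after 1 h, 5, 1 and 4 after 2 h and 9, 2 and 8 after 4 h, with 19 counts at 4 h against 3 at 0 h, a ratio of 5.90 (exact 95% interval 1.74 to 31.1, counting error only), and 2.38 (adjusted p = 0.0607) in the test.

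PAO (AT3G44880, chr3:16383595-16386344), the oxygenase that opens the ring of pheophorbide a, had 76.3, 76.7 and 74.4 CPM at 0 h of HL, 110.2, 130.2 and 162 after 1 h, 154, 149 and 149.7 after 2 h and 131, 109 and 137 after 4 h. In LL it had 95.7, 67.2 and 57.4 CPM at 0 h, 117, 141.5 and 129 after 1 h, 209, 173 and 182 after 2 h and 165.5, 173 and 146 after 4 h. All later libraries lay above those of 0 h in each series. It rose in HL by 0.82 ± 0.15 (adjusted p = 0.000742) at 1 h, 0.96 ± 0.15 (adjusted p = 0.000106) at 2 h and 0.69 ± 0.15 (adjusted p = 0.00203) at 4 h, short of 2-fold. In LL it rose by 0.80 ± 0.17 (adjusted p = 0.00275) at 1 h, 1.36 ± 0.17 (adjusted p = 8.46e-06) at 2 h and 1.12 ± 0.17 (adjusted p = 5.29e-05) at 4 h, and this last call ended without LL 0 h library 3 (0.99). PPH, which takes the tail off pheophytin, passed higher at every time of LL and at 1 and 2 h of HL, with 0.99 (adjusted p = 4.67e-05) at 2 h of LL and 0.73 (adjusted p = 0.00124) at 2 h of HL. RCCR had 4, 4 and 3 counts at 0 h of HL, 2, 5 and 1 after 1 h, 2, 3 and 1 after 2 h and 2, 0 and 6 after 4 h, too few for a statement on its change.

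**Figure D4:**
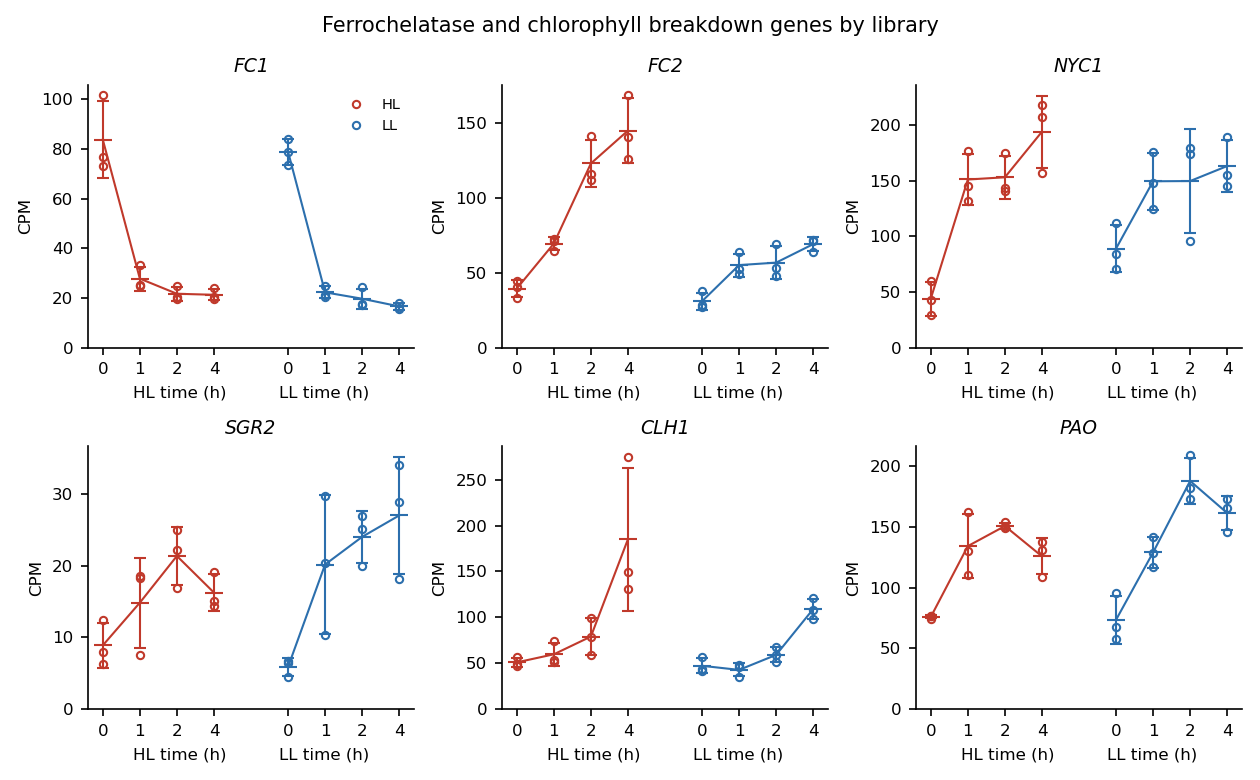
Level of the ferrochelatases FC1 and FC2 and of 4 breakdown genes in CPM (vertical axes start at 0) at 0, 1, 2 and 4 h of HL (red, left) and LL (blue, right); circles are libraries, and bars are the mean and SD of 3. FC1 lies below its 0 h level at every later time, and FC2, NYC1 and PAO above it.

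The 4 h libraries were also set against those of 1 h. In HL, 4 genes were called, all higher, where 4.07% of all genes were called higher and 3.39% lower. A further 2 passed higher and 2 lower without a call, with 8.35% of all genes passing higher and 7.92% lower. The genes called were CLH1 with 1.59 ± 0.24 (adjusted p = 0.000102), CHLG with 1.10 ± 0.24 (adjusted p = 0.00367), GUN4 with 1.07 ± 0.30 (adjusted p = 0.0168) and FC2 with 1.03 ± 0.16 (adjusted p = 0.000108). The call for CHLG ended without HL 4 h library 1 (0.99), that for GUN4 without HL 1 h library 1 (0.84) or 2 (1.09), and that for FC2 without HL 1 h library 1 (0.99) or HL 4 h library 1 (0.90). CHLM (0.72, adjusted p = 0.000173) and PORC (0.90, adjusted p = 0.000574) passed higher, and PORB (-0.61, adjusted p = 0.00541) and HEMB1 (-0.80, adjusted p = 0.0333) passed lower. Against 0 h, GUN4 and CHLM had passed lower at 1 h and CHLG had -0.73 (adjusted p = 0.0516), while FC2 had passed higher and PORB lower. In LL, CLH1 was called higher with 1.34 ± 0.17 (adjusted p = 2.3e-05), where 2.42% of all genes were called higher and 3.2% lower. Without the 2-fold limit 5.32% passed higher and 6.49% lower, and CHLH (-0.67, adjusted p = 0.00127), PORB (-0.54, adjusted p = 0.00825) and PPOX1 (-0.67, adjusted p = 0.00934) passed lower.

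The series were compared as the HL change minus the LL change, in 1 fit of all 24 libraries over 10349 genes. Each light level was a series with its own 0 h libraries, so light level and series cannot be told apart here. At 1 h and at 2 h 0 of 30 genes were called by edgeR and 0 by DESeq2, where 0.696% of all genes were called higher and 0.0676% lower at 1 h and 0.879% and 0.116% at 2 h. No gene of the 30 passed either, against 0.705% higher and 0.126% lower of all genes at 1 h and 1.18% and 0.261% at 2 h. At an unadjusted p under 0.05 edgeR gave 2 genes higher and 1 lower at 1 h, and 5 higher at 2 h. At 4 h 3 genes were called, all with the higher change in HL, where 2.42% of all genes were called higher and 0.502% lower. PORC differed by 1.12 ± 0.25 (adjusted p = 0.00845), from changes of 0.61 in HL and -0.48 in LL. The call ended without LL 0 h library 3 (0.97), LL 4 h library 1 (0.96) or LL 4 h library 2 (0.999), each with the difference just under 2-fold. NYC1 differed by 1.26 ± 0.32 (adjusted p = 0.0235). Its levels at 4 h were 194 ± 32.6 CPM in HL and 163 ± 23.4 CPM in LL, and at 0 h 44.1 ± 15.4 CPM in HL and 89.1 ± 21.1 CPM in LL (SD, n = 3). Set directly against LL, the HL level of NYC1 differed by -1.01 (adjusted p = 0.0121) at 0 h and by 0.25 (adjusted p = 0.597) at 4 h. The call for the difference between the changes ended without LL 0 h library 1 (1.06), LL 4 h library 2 (1.19) or 3 (1.15), HL 0 h library 1 (1.204) or 2 (1.04), or HL 4 h library 1 (1.21) or 3 (1.17).

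HEME1 differed by 3.57 ± 0.86 (adjusted p = 0.0142) on the few counts given above, and the call ended without LL 0 h library 2 (3.07). At 0 h its HL libraries already lay below those of LL, with -1.41 ± 0.56 (adjusted p = 0.139), which did not pass. CHLH passed without a call, with 0.68 ± 0.18 (adjusted p = 0.0264), where 3.1% of all genes passed higher and 1.23% lower. For PORB the value was -0.57 (adjusted p = 0.0798), for FC2 0.71 (adjusted p = 0.0999), for FC1 0.28 (adjusted p = 0.617) and for SGR2 -1.30 (adjusted p = 0.206), and none of these passed. The shoot markers moved opposite ways in the series, as given above, and their part in these differences was not tested.

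**Figure D5:**
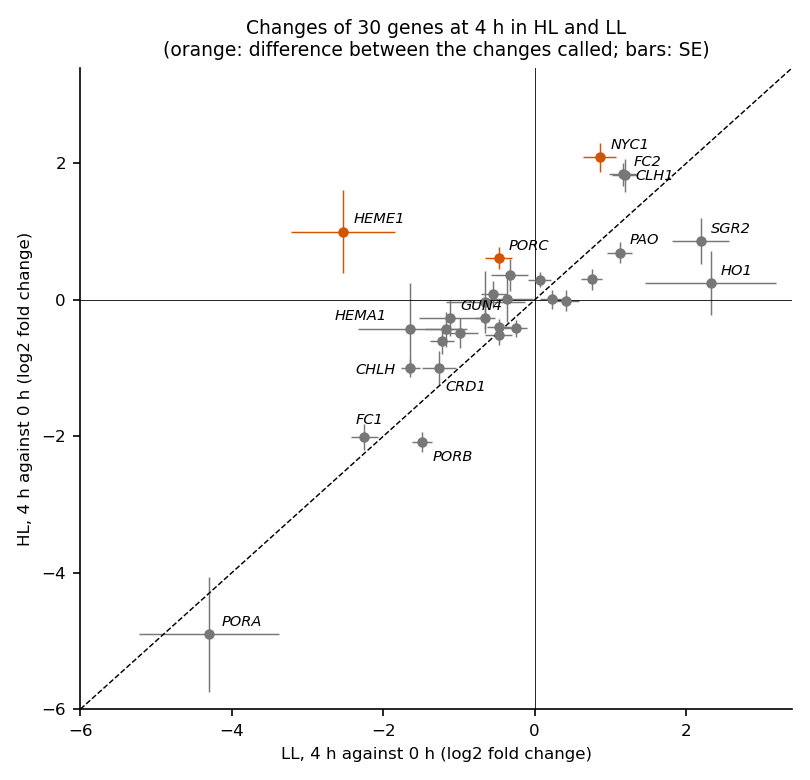
Log2 fold change at 4 h against 0 h in HL (vertical) and LL (horizontal) for the 30 genes of both tables, with SE bars and a dashed line where the changes are equal. PORC, HEME1 and NYC1, in orange, are the genes called for the difference between the changes, and all lie above the line.

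Levels were also compared directly at matched times, where light level and series again cannot be told apart. At 0 h, where 0.348% of all genes were called higher and 4.14% lower in HL and 1.41% and 4.96% passed, HEMB1 (-1.20 ± 0.28, adjusted p = 0.00918) and NYC1 (-1.01 ± 0.24, adjusted p = 0.0121) were called lower. The call for HEMB1 ended without LL 0 h library 2 (-1.05), and that for NYC1, at the 2-fold limit, ended in 9 of 24 cases of leaving out a library, with values down to -0.81 without LL 0 h library 1 or HL 0 h library 2. At 1 h 0 genes were called by edgeR and 0 by DESeq2 (0.377% of all genes were called higher and 0.029% lower), with 1 higher and 2 lower at an unadjusted p under 0.05, and PORB passed lower with -0.72 ± 0.13 (adjusted p = 0.00406), where 0.754% of all genes passed higher and 0.155% lower. At 2 h, where 1.68% were called higher and 1.27% lower and 3.93% and 1.9% passed, GUN4 (2.625 ± 0.51, adjusted p = 0.002) and FC2 (1.12 ± 0.16, adjusted p = 4.37e-05) were called higher and HEMB1 (-1.10 ± 0.29, adjusted p = 0.022) lower, and CHLH passed higher (0.58, adjusted p = 0.00849). The HEMB1 libraries overlap at 2 h, and its call ended without LL 2 h library 1 (-0.95) or 3 (-0.82) or HL 2 h library 1 (-1.05) or 2 (-1.04).

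At 4 h, where 2.64% of all genes were called higher and 0.271% lower, the genes called higher in HL than in LL were HEME1 (2.16 ± 0.65, adjusted p = 0.04), GUN4 (1.27 ± 0.37, adjusted p = 0.0354) and FC2 (1.07 ± 0.15, adjusted p = 2.62e-05). FC2 had means of 145 ± 21.7 CPM in HL and 69.0 ± 4.50 CPM in LL, and GUN4 of 17.2 ± 1.32 CPM in HL and 7.11 ± 1.835 CPM in LL (SD, n = 3). The calls for HEME1 and GUN4 ended without any 1 of 5 libraries of 4 h each, which were every LL library and HL libraries 1 and 2 for HEME1, and LL libraries 1 and 2 and every HL library for GUN4. The changes were then 1.75 to 2.53 for HEME1 and 1.12 to 1.33 for GUN4. The call for FC2 ended without HL 4 h library 1 (0.94). In all, 8 genes passed higher and 2 lower (5.55% and 1.36% of all genes). Those without a call were CHLH (0.76, adjusted p = 0.000198), PORC (0.86, adjusted p = 0.00178), GSA2 (0.56, adjusted p = 0.0112), HEMC (0.96, adjusted p = 0.0128) and CLH1 (0.76, adjusted p = 0.0246) on the higher side and PORB (-0.76, adjusted p = 0.000324) and UPM1 (-0.46, adjusted p = 0.0424) on the lower side.

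Genes around the pathway moved too. Of 27 other genes of tetrapyrrole metabolism, 15 were tested in HL and 16 in LL, and at 4 h 6 were called higher in HL (40% of those tested, against 7.51% of all genes). In LL 2 were called higher (12.5%, against 5.74% of all genes) and 1 lower (6.25%, against 10.8%). In HL these included TIC55, which hydroxylates breakdown products (1.96 ± 0.19, adjusted p = 1.66e-07), and CYP89A9, which makes a class of them (1.57 ± 0.18, adjusted p = 1.19e-06). In LL they were CYP89A9 (2.35 ± 0.17, adjusted p = 1.24e-08), MES16, a methylesterase of the breakdown products (1.90 ± 0.38, adjusted p = 0.000773), and, lower, GGPS11, which supplies the precursor of the phytyl tail (-1.89 ± 0.42, adjusted p = 0.00215). Of 15 regulators of the pathway, 12 were tested in each series, and in HL 4 were called higher and 2 lower (33.3% and 16.7%, against 7.51% and 8.17% of all genes). In LL 5 were called higher and 2 lower (41.7% and 16.7%, against 5.74% and 10.8% of all genes). HY5, a light-signalling factor that binds the G-box, had means of 239.7 ± 11.1 CPM at 4 h against 53.4 ± 9.17 CPM at 0 h of HL and of 130.0 ± 23.99 CPM against 39.6 ± 7.19 CPM in LL (SD, n = 3). PIF5, a factor that binds the same motif and is removed in light, had 52.7 ± 8.10 CPM at 4 h against 335.5 ± 19.6 CPM at 0 h of HL and 67.9 ± 15.3 CPM against 310.5 ± 85.6 CPM in LL. The related PIF4 had 3.66 ± 2.07 CPM at 4 h against 82.0 ± 20.3 CPM at 0 h of HL and 12.7 ± 6.15 CPM against 77.0 ± 19.9 CPM in LL. All of these passed, HY5 higher and PIF4 and PIF5 lower in both series. The GATA factor CGA1 was called higher in HL (3.65 ± 0.30, adjusted p = 1.73e-08) and its relative GNC in LL (1.60 ± 0.19, adjusted p = 2.98e-06). Each is named for the series where its p was among the smallest, and its value in the other series is not given here. The part of these factors in the changes above was not tested. Both lists were chosen with earlier results of these data known, so their shares are a description and not a test.

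Reads of related or overlapping genes bear on some of these values. The coding sequences of PORA and PORB are 83.3% identical, those of GSA1 and GSA2 83.5% and those of FC1 and FC2 65.3%. In the last 400 bases of the transcripts, where 3′ end reads fall, the longest run shared was 13 bases for PORA and PORB, 20 for GSA1 and GSA2 and 8 for FC1 and FC2. Of the 32 genes analysed, 16 overlap another annotated gene in TAIR10.1, among them 7 of the 14 called at 4 h, which are HEME1, PPOX1, GUN4, CRD1, PORB, FC1 and PAO. The partner of HEME1, that of PAO and 1 of those of FC1 lie on the same strand. Whether counting used strand is not given in the sources used here, so reads of an overlapping partner could not be told apart for these genes.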

How the data were processed

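MARS-seq 3′ end libraries of 24 whole-seedling samples, 3 for each of 8 groups taken from the sample labels, were used as deposited in a table for each light level. The authors trimmed reads with cutadapt, aligned them with STAR 2.4.2a, counted them on Araport 11 genes with HTSeq and kept genes with at least 5 reads in a sample, and the deposited counts are raw. The 48 other per-sample columns, with values normalized or log-transformed by the authors, and the columns with fold changes and p-values of their DESeq2 comparisons were not used. Counts were tested with edgeR 4.0.16 in R 4.3.3 (TMM, quasi-likelihood F test, 12 libraries a series, 24 for HL against LL over 10349 shared genes), with every gene of a table kept and p-values adjusted over all of them. SE is the log2 fold change divided by the root of F. The scripts were tested on simulated data. Alternatives were DESeq2 1.42.0, RLE scaling, filterByExpr, a block for the replicate number, 1 fit of 24 libraries and leaving out each library. Full values are given for genes called at 4 h or for a difference between the changes, and for HEMA1, CHLH, GUN4, FLU and the POR genes whatever they show. Of the other lists at most 2 called genes a direction, with the smallest p, are named for a light level. The genes and lists were chosen with earlier results of these data known. Whether molecular identifiers were collapsed is not given in the sources used here, and the targeted gene CAO is not analysed here, so the genotype was not checked in the counts. Depth, from 1163870 to 2070855 counts, leaves genes with few counts imprecise.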

Additional observations from a re-analysis of the deposited data

Results flagged for a closer look

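For 3 genes the change at 4 h differed between the HL and LL series in a test of the difference itself, where light level and series cannot be told apart. PORC had a change 1.116 higher in HL than in LL on the log2 scale (SE 0.25, edgeR adjusted p = 0.00845), with 145 to 171 CPM at 4 h of HL and 69.8 to 113 CPM at 4 h of LL. NYC1 had a change 1.257 higher in HL (SE 0.32, adjusted p = 0.0235). It had 157 to 218 CPM at 4 h of HL and 145 to 190 CPM at 4 h of LL. At 0 h it had 29.2 to 60.0 CPM in HL and 70.9 to 112 CPM in LL. Set directly against LL, its HL level differed by -1.01 (adjusted p = 0.0121) at 0 h and by 0.25 (adjusted p = 0.597) at 4 h, which did not pass. HEME1 had a change 3.571 higher in HL (SE 0.86, adjusted p = 0.0142) on 1 to 12 counts in each library. Its levels at 0 h were 1.153 to 2.262 CPM in HL and 2.455 to 6.776 CPM in LL.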

How the results depend on the processing

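Of 63 called values of single genes, 41 were called under every alternative that gave them an adjusted p, and 0 changed sign. In all, 22 were lost by leaving out at least 1 library and 4 with DESeq2. A further setting, filterByExpr, lost 1, the fit of 24 libraries 1, a replicate block 2 and RLE 0. DESeq2 did not call HEMA1 or PORA at 2 h of LL or GUN4 or HEME1 at 4 h of LL (adjusted p = 0.121, 0.0885, 0.124 and 0.0522), and gave no adjusted p for PORA at any time of HL, for HEMA1 at 1 h of LL or for HEME1 between the light levels at 4 h. CRD1 at 4 h of HL went to -0.99 with filterByExpr and -0.96 in the fit of 24 libraries. Leaving out 1 library moved the count of genes called higher to between 1 and 2 for HL at 1 h (2 without HL 1 h replicate 1) and for LL (2 without LL 0 h replicate 1), between 3 and 5 for HL at 4 h (5 without HL 0 h replicate 2) and between 2 and 4 at 2 h of LL (4 without LL 0 h replicate 3). Genes called lower at 1 h of LL numbered 1 to 4 (1 without LL 1 h replicate 3). In HL, 4 h against 1 h gave 2 to 5 (2 without HL 4 h replicate 1). The difference between the changes gave 0 to 1 genes at 2 h and 1 to 3 at 4 h (1 without LL 4 h replicate 2), and HL against LL 1 to 2 at 0 h and 0 to 3 at 4 h (0 without HL 4 h replicate 1). Same-numbered libraries had correlations of deviations from -0.317 to 0.404 (median 0.00178, 18 of 84 over 0.1), against a median of -0.00445 for other pairs. Of 24 libraries, 10 correlated best with their own number. What unpaired libraries would give was not worked out, so these values do not decide whether replicate numbers paired some libraries. With the replicate block LL had 8 genes called lower at 4 h and 6 at 2 h, against 9 and 7 without it, HEMA1 (2 h, -2.14) and GUN4 (4 h, -1.10) being lost. Where no cause is named, the cause was not tested. Few counts limit HEMA1, HEME1, PORA, HO1, CHLI1, SGR1 and RCCR most.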
